A study of Mus musculus with 22 samples.

Results

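A list of 31 genes of neurons and synapses was followed in glial cells that had been sorted from mouse cortex. Of these genes 30 were measured, out of 22485 genes with a named probe, and 1 was not analysed here. The members are a fixed list of genes widely used to mark neurons: 6 of vesicle release, 5 of the postsynaptic density and glutamate receptors, 6 of transmitter synthesis, vesicular loading and chloride export, 7 of the neuronal cytoskeleton, 2 of the neuronal nucleus and glycolysis and 4 secreted interneuron products. Where a gene had several probes, the brightest on average across the 22 samples was used. No sample of neurons was part of the design.

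The cells came from C57BL/6 mice of 15 to 18 months that either carried APPswe/PS1dE9, transgenes of mutant amyloid precursor protein and presenilin under prion protein gene sequence that lead to amyloid plaques in the cortex, or were wild-type littermates (WT). All animals were perfused, and the cortex was dissociated with papain and DNase, passed over a Percoll gradient and freed of myelin. Microglia were taken as O4-negative cells positive for CD11b and CD45, and astrocytes as cells with the glutamate transporter GLT1 and without CD11b. There were 7 microglia samples of each genotype and 4 astrocyte samples of each genotype. Each of 11 two-colour arrays carried an APPswe/PS1dE9 and a WT sample of the same cell type and replicate number, with the dyes exchanged between arrays. Microglia replicates 2 to 5 lay on slide 1 and replicates 1, 6 and 7 on slide 2, whereas slide 3 held every astrocyte array, and the effect of the slide cannot be told apart from that of the cell type. All values below are the deposited log2 values of single channels or differences between them.

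Neurons release transmitter when calcium, sensed by synaptotagmin, triggers fusion of vesicles by the SNARE machinery, to which SNAP-25 belongs and which complexin holds ready. On the receiving side glutamate receptors are anchored by scaffold proteins such as PSD-95, and calcium acts through neurogranin and the kinase CaMKII. Neurofilaments, MAP2, neuronal tubulin and the stathmins shape axons and dendrites. Microglia and astrocytes contact synapses and engulf synaptic material, and astrocytes are known to transcribe a number of genes that were first described in neurons.

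Facts that apply to all members come first. The sorted populations carried their labels' markers. The mean level of the astrocyte markers was 8.40 in WT microglia against 15.54 in WT astrocytes, and that of the microglia markers was 15.21 against 7.68. In the same order, endothelial markers were at 7.53 and 12.6, mural at 6.11 and 11.17 and oligodendrocyte precursor at 5.76 and 8.23. Oligodendrocyte markers were at 8.03 and 5.89, and perivascular macrophage and monocyte markers at 9.32 and 4.12. Other cells' part in the members' cell type differences was not tested. Column medians lay between 6.24 and 6.26, so a shift common to all genes could not be seen. Microglia arrays had blanks for 1072 to 5239 genes, with the highest count on the array of replicate 4, and astrocyte arrays for 80 to 270. The blank genes were dim where they were measured, with medians of 2.59 to 3.16. Over the 16310 genes measured on every array the mean level was 7.38 to 8.26 in WT microglia samples and 8.23 to 8.31 in WT astrocyte samples, and it was lowest in microglia replicate 4 in both genotypes. Levels of members in different replicates and cell types carry that gap. The samples of 1 array lay close in it, at 7.38 and 7.39 for microglia replicate 4, so a gap in this mean is small within that array. Differences of dim genes within an array may still vary with the quality of the array. The members' median difference within an array was -0.81 for microglia replicate 4, which had the most blank genes. It was -0.27 for microglia replicate 7, which had the fewest of the microglia arrays. A link between blanks and these differences was not tested. In such bulk samples fewer cells of a type and less RNA per cell cannot be told apart.

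The signals of the members covered most of the scale. Their means over all samples ran from 2.76 for Vip, a peptide of interneurons, to 12.43 for Snap25, with a median of 6.06. Of the 30 genes, 10 lay above 6.47, the median of all genes, and are called bright here: Snap25, Syn2, Syp, Nrgn, Camk2a, Dlg4, Slc12a5, Map2, Stmn3 and Eno2. The nearest gene below was Slc32a1 at 6.44 and the nearest above was Dlg4 at 6.65. The other 20 are called dim. Probes differ in how strongly they bind, so this is an order of signals and not of transcript amounts. In all, 23 members had a value on every array, and 7 had blanks: Gad2 and Slc17a6 on 1 array each, Gria1 and Slc17a7 on 2, Nefm and Reln on 4 and Vip on 7. Nothing in the table marks a value as above or below background, so a dim value is given as a signal and not as expression.

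Group medians of the members lay close to or below those of all genes. In WT microglia the median of the 30 member means was 5.68, against 6.11 for all genes. In WT astrocytes it was 6.64 against 6.81. In APPswe/PS1dE9 microglia the members' median was 4.98 against 6.14, and in APPswe/PS1dE9 astrocytes 6.75 against 6.85. The microglia samples of APPswe/PS1dE9 mice therefore had the lowest member median of the 4 groups, while the median of all genes there was close to that of WT microglia.

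**Figure D1:**
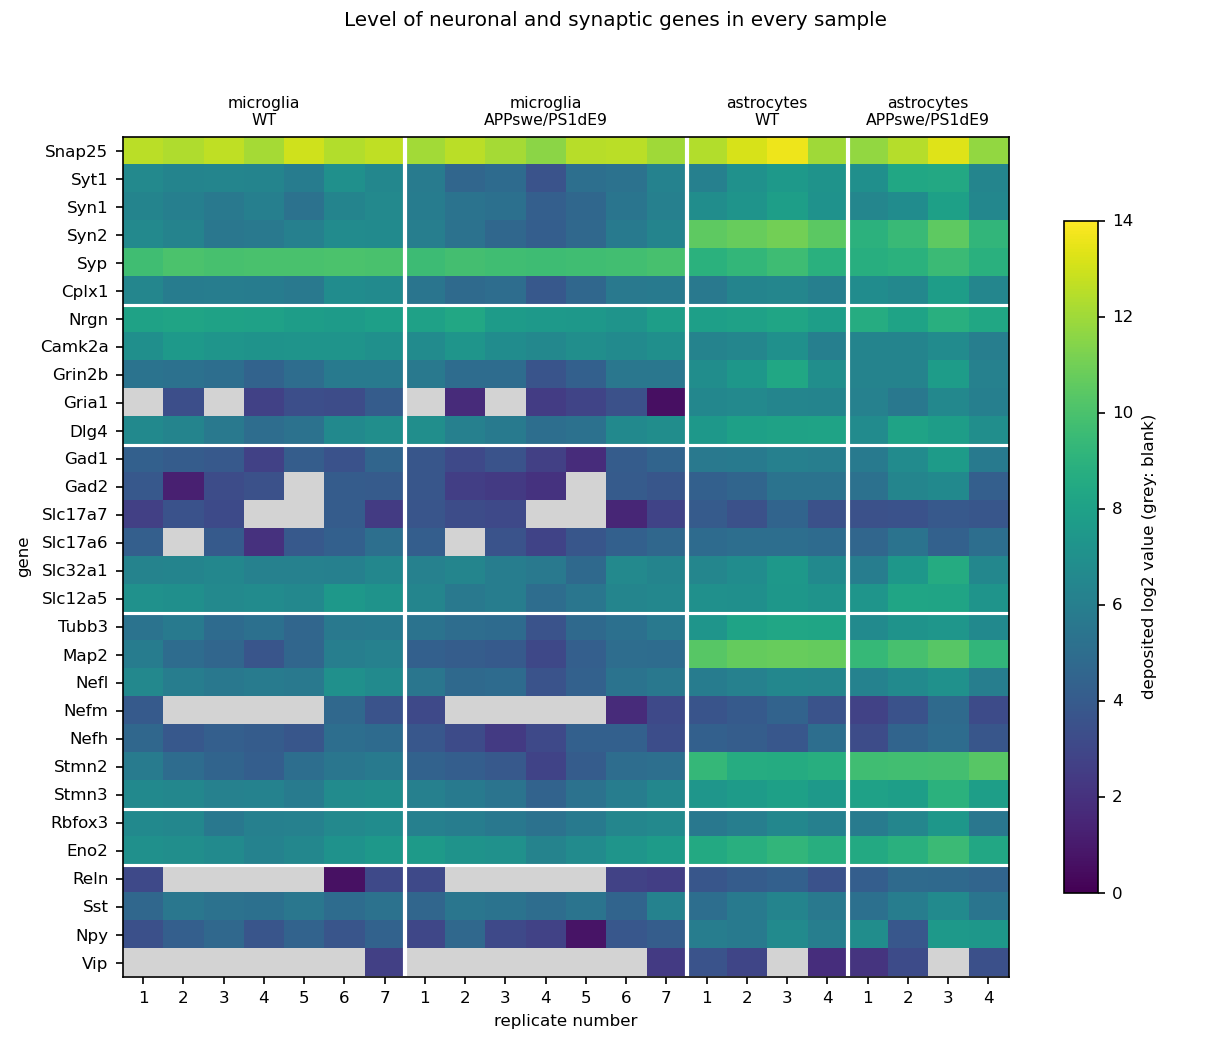
Deposited log2 value of the 30 members (rows, grouped by role) in each of the 22 samples (columns, by group and replicate number), as colour, with blanks in grey. Snap25 lay between 11.54 and 13.65 in every sample, Syn2, Map2 and Stmn2 were brighter in every astrocyte sample than in any microglia sample, and Vip, Reln and Nefm were blank on most microglia arrays.

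Some members gave strong signals in both cell types. Snap25, a SNARE of the vesicle release machinery, ranged from 12.13 to 12.98 with a median of 12.54 in WT microglia and read 12.39, 13.16, 13.65 and 12.01 in WT astrocytes. Its mean over all samples stood at percentile 95.4 of all genes. Syp, which encodes the vesicle membrane protein synaptophysin, ranged from 9.72 to 10.06 in WT microglia with a median of 9.98, and read 8.93, 9.28, 9.64 and 8.90 in WT astrocytes. Synaptophysin was thus higher in every WT microglia sample than in any WT astrocyte sample. Nrgn, the calmodulin-binding protein neurogranin, lay between 7.67 and 8.17 in WT microglia and between 7.87 and 8.22 in WT astrocytes, and its groups overlapped.

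Between the cell types of WT mice, 14 of the 30 members were higher in astrocytes, 2 were lower and 14 did not pass (limma, array as a random block, Benjamini-Hochberg adjusted p under 0.05 over all genes). Of all genes tested, 53.3% passed, 35.3% higher and 18% lower in astrocytes. The members' median difference was 0.88, against 0.34 over all genes. The members' share of calls was that of the background, and their share of higher calls was above it. Of bright members 5 were higher and 2 lower, where 72.4% of all genes above the median gene passed, and of dim members 9 were higher and 0 lower, where 34% of the rest passed. The WT groups did not overlap for 15 of 30 members, against 45.1% of all genes.

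The largest differences belonged to a dendritic, a vesicle and a growth-associated gene. Map2, the dendritic microtubule-associated protein, ranged from 3.67 to 6.14 with a median of 4.96 in WT microglia and read 10.38, 10.67, 10.75 and 10.67 in WT astrocytes, a difference of 5.49 ± 0.38 (SE, adjusted p = 1.03e-10), or 44.8-fold. Syn2, the vesicle phosphoprotein synapsin II, ranged from 5.55 to 6.77 with a median of 6.27 in WT microglia and read 10.54, 10.75, 11.03 and 10.46 in WT astrocytes (4.47 ± 0.35, adjusted p = 8.58e-10). Stmn2, a microtubule regulator of growing neurites, ranged from 4.21 to 5.83 with a median of 5.08 in WT microglia and read 9.33, 8.65, 8.60 and 8.79 in WT astrocytes (3.73 ± 0.34, adjusted p = 9.40e-09). For all of these the lowest astrocyte sample lay above the highest microglia sample.

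The receptor genes Gria1 (3.03 ± 0.57) and Grin2b (2.16 ± 0.35), subunits of AMPA and NMDA receptors, were higher in WT astrocytes, as was Dlg4, the scaffold PSD-95 (1.83 ± 0.36). Among the cytoskeletal genes the neuronal tubulin gene Tubb3 was higher by 2.63 ± 0.28 and the stathmin gene Stmn3 by 1.20 ± 0.30. Synapsin I, Syn1, was higher by 1.23 ± 0.33, the glycolytic enzyme gene Eno2 by 1.99 ± 0.25 and Gad1, which makes GABA, by 2.00 ± 0.53. The neuropeptide gene Npy (2.07 ± 0.72), the secreted matrix gene Reln (1.74 ± 0.52) and the vesicular glutamate transporter gene Slc17a6 (1.09 ± 0.41) passed at adjusted p between 0.0140 and 0.0306.

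The 2 members that were lower in WT astrocytes were Syp at -0.77 ± 0.14 (adjusted p = 1.04e-04) and Camk2a, a kinase of the postsynaptic density, at -0.79 ± 0.17 (adjusted p = 5.70e-04). Members with close values in the 2 cell types were the neurofilament gene Nefl (0.02 ± 0.33), Nrgn (0.05 ± 0.19), Cplx1 (-0.09 ± 0.33), the potassium-chloride exporter gene Slc12a5 (0.19 ± 0.26) and Snap25 (0.29 ± 0.27), none of which passed. With slide as a random block, which reflects that slide and cell type coincide, 8 members stayed higher and 0 lower, and Syp (adjusted p = 0.101) and Camk2a (adjusted p = 0.168) were among the 8 that no longer passed. Slc17a6 lost the call without microglia replicate 5 or any one astrocyte replicate (adjusted p up to 0.0672), and Npy without astrocyte replicate 3 or 4 (adjusted p up to 0.0915).

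The same comparison among APPswe/PS1dE9 samples gave 20 members higher in astrocytes, 2 lower and 8 without a call, with a median difference of 1.66. Of all genes, 35.7% were higher and 18.2% lower there. The genes that passed among APPswe/PS1dE9 samples but not among WT samples were Syt1 (2.51), Cplx1 (1.89), Slc12a5 (1.86), Nefl (1.65), Nrgn (0.75), Gad2 (2.53) and Slc32a1 (1.10), the latter pair serving GABA synthesis and vesicle loading. For 5 of these 7, the difference between the genotype effects passed in the test given further on. That test compares the same 4 groups of samples, so it is not separate support.

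In microglia, members were lower in APPswe/PS1dE9 than in WT samples or did not pass: 13 of 30 fell, 0 rose and 17 were not called (limma, array as a fixed block, Benjamini-Hochberg adjusted p under 0.05 over all genes). Over all genes 19.7% passed, 11.4% lower and 8.27% higher. At an unadjusted p under 0.05 there was 1 higher member, Eno2. The members' median difference was -0.43, against -0.04 over all genes, and 26 of the 30 estimates were negative. The 4 positive ones were Eno2, Slc17a6, Reln and Vip, none of them called, and that of Vip had the opposite sign to its only measured array. Every one of the 7 arrays had a negative member median, from -0.81 on the array of replicate 4 to -0.27 on that of replicate 7. Of the bright members 7 of 10 fell, against 31.4% of all genes above the median gene that passed in either direction. Of those genes 18.8% were lower. Bright and dim were set over all 22 samples and not within microglia. For example, in WT microglia the bright Map2 stood at percentile 41.6 of all genes and Dlg4 at 49.6, while the dim Syt1 stood at 52.4. Of the dim members 6 of 20 fell, against 7.83% of all genes at or below the median that passed in either direction and 3.97% that were lower.

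All 6 genes of vesicle release fell in microglia. Syt1, the calcium sensor synaptotagmin 1, ranged from 5.87 to 7.03 with a median of 6.38 in WT and from 3.60 to 6.19 with a median of 5.12 in APPswe/PS1dE9 samples, and fell by 1.44 ± 0.21 (adjusted p = 0.00117), which is 2.71-fold. Cplx1, complexin 1, ranged from 5.67 to 6.82 with a median of 5.94 in WT and from 3.87 to 5.79 with a median of 5.00 in APPswe/PS1dE9 samples, a fall of 1.18 ± 0.16 (adjusted p = 8.30e-04). Both were lower on 7 of 7 arrays, although the groups as a whole overlapped. Syn2 fell by 0.95 ± 0.16 and Syn1 by 0.79 ± 0.15, also on 7 of 7 arrays. The second, dimmer probe of Syn2 gave 0.18 and did not pass. The bright Syp (-0.22 ± 0.06, adjusted p = 0.0320) and Snap25 (-0.31 ± 0.09, adjusted p = 0.0400) changed least, Syp on 7 and Snap25 on 5 of 7 arrays. The calls of Syp and Snap25 did not hold in most fits with a single array left out, as given below.

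Among the 7 cytoskeletal genes, 5 fell in microglia. Nefl, the light neurofilament subunit, ranged from 5.59 to 7.05 with a median of 5.93 in WT and from 3.57 to 5.62 with a median of 4.87 in APPswe/PS1dE9 samples (-1.36 ± 0.15, adjusted p = 2.05e-04). Map2 fell by 0.90 ± 0.16 (adjusted p = 0.00300), Stmn2 by 0.88 ± 0.16 (adjusted p = 0.00339) and Stmn3 by 0.81 ± 0.15 (adjusted p = 0.00468), each on 7 of 7 arrays. Tubb3 fell by 0.47 ± 0.13 (adjusted p = 0.0355) on 6 of 7 arrays, and much of its mean came from replicate 4, at -1.62. The other neurofilament subunits did not pass. The Nefm probe used was measured on 3 microglia arrays only (-1.54 ± 0.50, adjusted p = 0.0896, and -0.36 without replicate 6), and Nefh gave -0.87 ± 0.34 (adjusted p = 0.103). Nefm passed as lower with its probes averaged (limma adjusted p = 0.0400) and with microglia fitted alone. With array as a random block both Nefm and Nefh passed.

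Of the 6 genes of transmitter synthesis, vesicular loading and chloride export, only the exporter gene Slc12a5 fell. Its second probe gave 0.01 in microglia and did not pass, and the values here are from the brighter probe of Slc12a5. Slc12a5 ranged from 6.52 to 7.47 with a median of 6.96 in WT microglia. In APPswe/PS1dE9 microglia it ranged from 5.01 to 6.47 with a median of 5.94, with no overlap of the groups (-1.08 ± 0.13, adjusted p = 3.96e-04). Groups without overlap were seen for 3 of 30 members (Slc12a5, Nefm and Vip, the last with 1 measured array), against 6.99% of all genes. The GABA genes Gad1 (-0.50 ± 0.32), Gad2 (-0.22 ± 0.42) and Slc32a1 (-0.25 ± 0.21) and the glutamate transporters Slc17a7 (-0.40 ± 0.40) and Slc17a6 (0.02 ± 0.19) did not pass.

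On the postsynaptic side Camk2a fell by 0.38 ± 0.08 (adjusted p = 0.00607) on 7 of 7 arrays. Nrgn (-0.20 ± 0.10), Grin2b (-0.28 ± 0.13), Gria1 (-1.23 ± 0.44, adjusted p = 0.0936) and Dlg4 (-0.01 ± 0.13) did not pass. Gria1 was measured on 5 microglia arrays, and its estimate ran from -1.68 without replicate 5 (adjusted p = 0.0499) to -0.60 without replicate 7. Neither the neuronal nuclear splicing factor gene Rbfox3 (-0.40 ± 0.16, adjusted p = 0.115) nor Eno2 passed. Eno2, unlike most members, gave a positive difference on 7 of 7 arrays (0.28 ± 0.09, adjusted p = 0.0544). The secreted products Sst (-0.00 ± 0.13), Npy (-0.80 ± 0.45) and Reln (0.73 ± 0.40) did not pass. Reln was measured on 3 microglia arrays, which read 0.05, 2.16 and -0.54, and without replicate 6 its estimate was -0.18. Vip was measured on 1 microglia array, where it read 2.66 in the WT and 2.39 in the APPswe/PS1dE9 sample, a difference of -0.27. Its fitted value of 0.82 ± 0.91 takes the dye effect from the astrocyte arrays, has the opposite sign and did not pass.

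**Figure D2:**
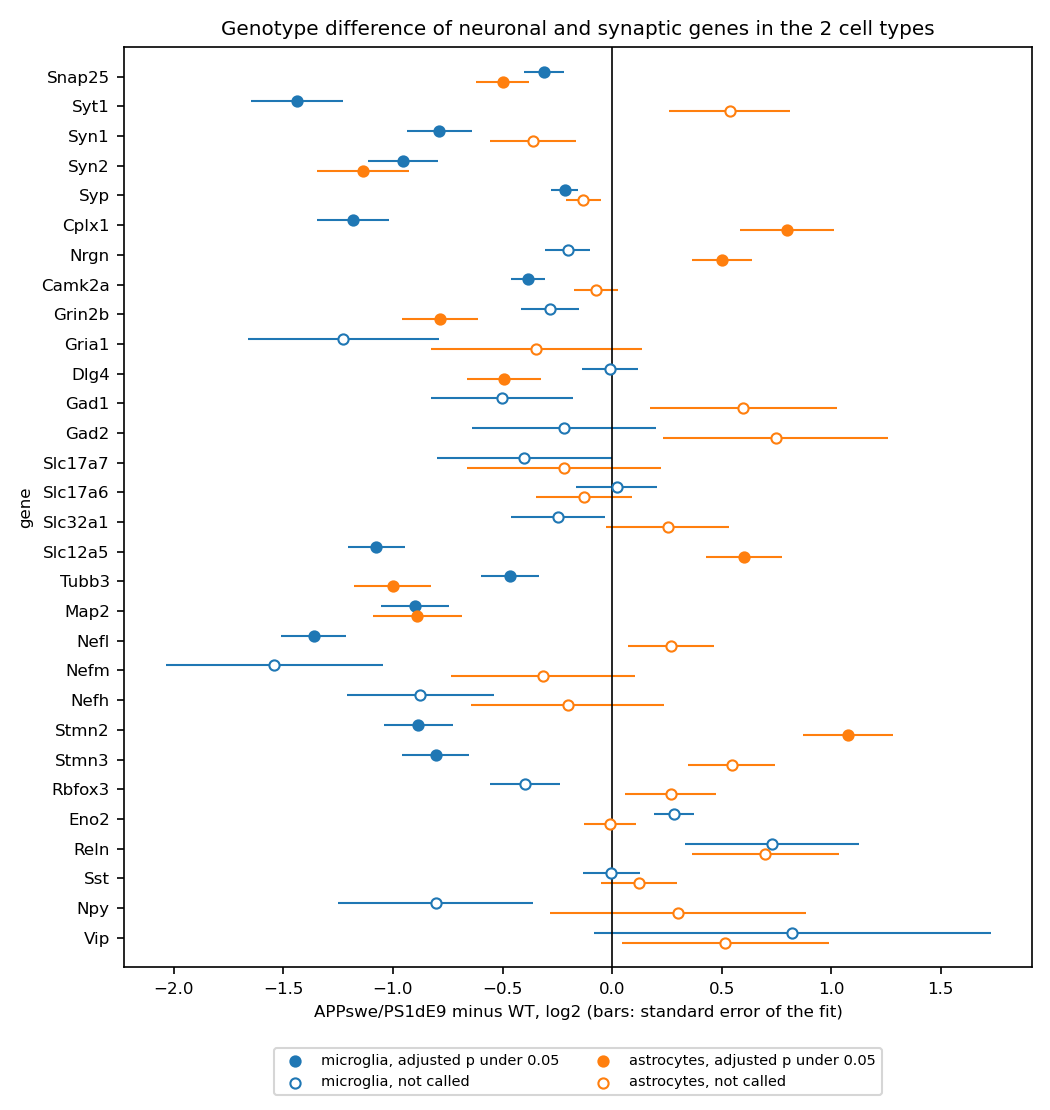
Fitted difference APPswe/PS1dE9 minus WT of each member in microglia (blue) and astrocytes (orange), in log2 units, with bars of 1 standard error and filled points where the limma adjusted p was under 0.05. In microglia 13 members were called and all lay below 0, while in astrocytes 4 called members lay above 0 and 6 below.

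Within slide 1 (4 microglia arrays) the median over 27 measured members was -0.57, 25 estimates were negative and 10 were called. Within slide 2 (3 arrays) the median over 30 members was -0.32, 21 were negative and 4 were called: Map2, Nefl, Slc12a5 and Cplx1. Arrays of slide 1 had 2996 to 5239 blank genes and those of slide 2 had 1072 to 1514. The numbers of all genes called within each slide are given in the last section as counts and not as shares. The member counts within a slide are therefore not set against a background. Of the 13 calls, 10 held with any 1 array left out, and those of Snap25, Syp and Tubb3 did not. Snap25 was lost without microglia replicate 1, 3, 4, 5 or 7 or any one astrocyte replicate (adjusted p up to 0.0932), Syp without any of microglia replicates 1 to 6 (up to 0.10), and Tubb3 without microglia replicate 1, 2, 3, 4, 5 or 7 or astrocyte replicate 1 (up to 0.0742). The array of replicate 4 mattered most for size: without it Tubb3 fell by 0.30 and Snap25 by 0.20.

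Markers of other cells moved in the same samples. In microglia samples 6 of 12 astrocyte markers were lower in APPswe/PS1dE9 samples and 0 higher, with a median difference of -0.86, and their mean level was 7.71 to 8.99 over WT and 7.00 to 8.27 over APPswe/PS1dE9 samples. Of 7 markers of perivascular macrophages and monocytes, 6 were lower, at a median of -0.96. Of 12 microglia markers 2 were higher and 5 lower (median -0.42), while the oligodendrocyte markers gave a median of 0.20, their precursors' of 0.03, the endothelial of 0.07 and the mural of 0.08. The part of these shifts in the members' values was not tested.

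In astrocytes the members moved in both directions: 4 of 30 rose in APPswe/PS1dE9 samples, 6 fell and 20 were not called. Over all genes 33.4% passed, 15.4% higher and 18% lower, so the members' 10 calls are a share close to the background. Their median difference was 0.06, against -0.07 over all genes, and 15 estimates were positive and 15 negative. Of bright members 2 rose and 4 fell, of dim members 2 rose and 2 fell. Among all genes 52.3% of those above the median gene and 14.6% of the rest passed.

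The genes that rose were Stmn2, Cplx1, Slc12a5 and Nrgn. Stmn2 read 9.33, 8.65, 8.60 and 8.79 in WT and 9.71, 9.75, 9.82 and 10.39 in APPswe/PS1dE9 astrocytes, a rise of 1.08 ± 0.21 (adjusted p = 0.00299), or 2.11-fold. Cplx1 read 5.65, 6.29, 6.43 and 6.05 in WT and 6.83, 6.55, 7.80 and 6.44 in APPswe/PS1dE9 samples (0.80 ± 0.22, adjusted p = 0.0170). For both genes the groups did not overlap.

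Slc12a5 read 7.01, 6.95, 7.43 and 7.17 in WT astrocytes and 7.31, 8.22, 8.19 and 7.25 in APPswe/PS1dE9 ones (0.60 ± 0.17, adjusted p = 0.0224), and Nrgn read 7.91, 8.00, 8.22 and 7.87 against 8.69, 8.14, 8.84 and 8.32 (0.50 ± 0.14, adjusted p = 0.0174). Their groups overlapped, and both were higher on 4 of 4 arrays. Stmn3 was higher on 4 of 4 arrays as well, at 0.55 ± 0.20, and missed the threshold (adjusted p = 0.0603).

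The genes that fell were Syn2, Tubb3, Map2, Grin2b, Snap25 and Dlg4. Syn2 read 10.54, 10.75, 11.03 and 10.46 in WT and 9.0, 9.48, 10.55 and 9.19 in APPswe/PS1dE9 astrocytes (-1.14 ± 0.21, adjusted p = 0.00246). Tubb3 read 7.30, 8.11, 8.28 and 8.21 in WT and 6.70, 7.22, 7.34 and 6.65 in APPswe/PS1dE9 samples (-1.0 ± 0.18, adjusted p = 0.00193). Map2 read 10.38, 10.67, 10.75 and 10.67 against 9.38, 9.94, 10.34 and 9.24 (-0.89 ± 0.20, adjusted p = 0.00778), and of the 6 it alone had groups without overlap. In all, 3 of 30 members had groups without overlap, against 17.3% of all genes.

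Grin2b was lower by 0.79 ± 0.17 (adjusted p = 0.00661) and Snap25 by 0.50 ± 0.12 (adjusted p = 0.0101), both on 4 of 4 arrays. Dlg4 was lower by 0.49 ± 0.17 on 3 of 4 arrays, at adjusted p = 0.0467. The interneuron products all had positive estimates, Reln 0.70 ± 0.34, Npy 0.30 ± 0.59, Vip 0.52 ± 0.47 and Sst 0.12 ± 0.17, and none passed. The GABA genes Gad1 (0.60 ± 0.43) and Gad2 (0.75 ± 0.51) gave wide errors and did not pass.

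Of the 10 calls in astrocytes, 6 held when any 1 array was left out, and those of Cplx1, Nrgn, Slc12a5 and Dlg4 did not. Without astrocyte replicate 3, Cplx1 was at 0.54 (adjusted p = 0.0832), Nrgn at 0.47 (adjusted p = 0.0636) and Slc12a5 at 0.45 (adjusted p = 0.108). That replicate had the highest value of the group for 20 of 23 members in WT and in APPswe/PS1dE9 astrocytes alike. Without replicate 1 Cplx1 was at 0.70 (adjusted p = 0.0798) and Nrgn at 0.39 (adjusted p = 0.0935), and without replicate 2 Slc12a5 was at 0.44 (adjusted p = 0.121). Dlg4 was lost without astrocyte replicate 1 or 4, at -0.28 without the latter (adjusted p = 0.219), and without any one microglia array, at adjusted p up to 0.0622. The 4 rises came to 2 without replicate 1 and to 1 without replicate 3. The 2 samples of an array matched in Eif2s3y, a gene of the Y chromosome, on 2 of 4 astrocyte and 5 of 7 microglia arrays. In a fit of the matched arrays the astrocyte effect of Cplx1 was at 0.32 (adjusted p = 0.419) and that of Nrgn at 0.30 (adjusted p = 0.306). The astrocyte calls of Snap25, Slc12a5 and Dlg4 were lost there as well, as were the microglia calls of Snap25, Syp and Tubb3.

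In these astrocyte samples other marker lists moved by more than the members. All 12 astrocyte markers were lower in APPswe/PS1dE9 samples, at a median of -1.37, and their mean level was 15.54 in WT and 14.12 in APPswe/PS1dE9 samples. Of 12 microglia markers 10 were higher and 1 lower (median 1.82), with mean levels of 7.00 to 8.45 over WT and 8.63 to 10.77 over APPswe/PS1dE9 samples. On the arrays of replicates 1 to 4 the microglia markers' median was 3.42, 1.75, 1.63 and 0.30, while that of the members was -0.08, 0.19, 0.41 and -0.27. Of 9 endothelial markers 8 were higher (median 1.17), as were 6 of 8 mural markers (median 1.92). Medians were 0.16 for the oligodendrocyte, -0.27 for the oligodendrocyte precursor and 0.28 for the perivascular macrophage and monocyte markers. Of the 14 members that were higher in WT astrocytes than in WT microglia, 5 fell in APPswe/PS1dE9 astrocytes (Syn2, Map2, Tubb3, Grin2b and Dlg4). Among the same 14, 1 rose (Stmn2) and 8 were not called (Syn1, Gria1, Gad1, Slc17a6, Stmn3, Eno2, Reln and Npy). The WT astrocyte samples enter both comparisons with opposite signs, so picking members this way by itself favours falls. The share of falls among all genes picked this way was not counted. The part of the cell composition in the members' values was not tested.

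**Figure D3:**
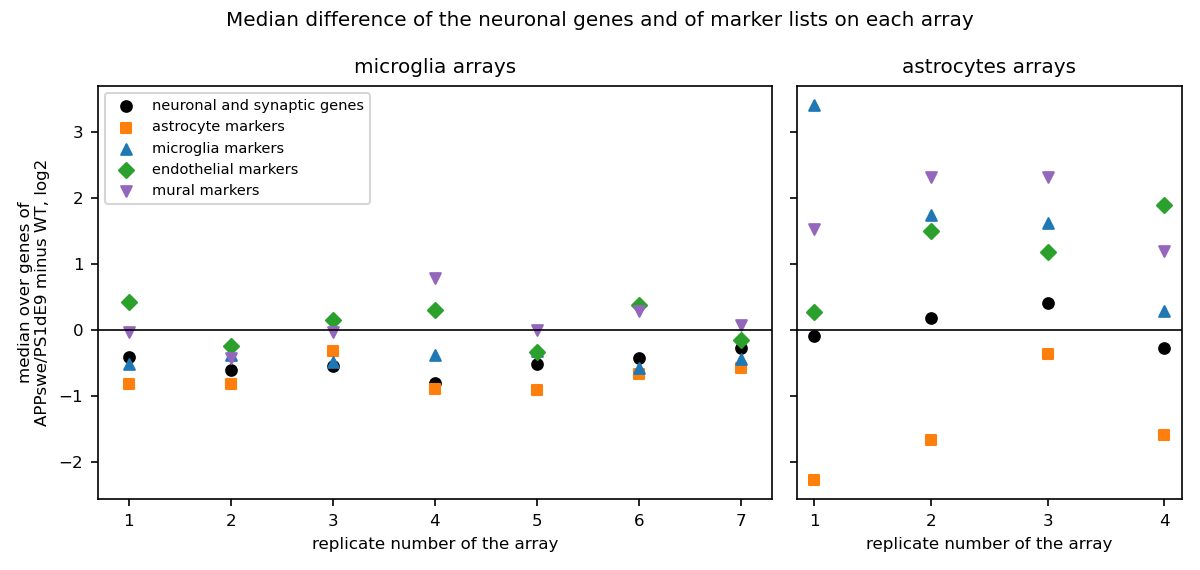
Median over genes of the difference APPswe/PS1dE9 minus WT, in log2 units, on each microglia array (left) and astrocyte array (right) for the members (black) and 4 marker lists (colours). On microglia arrays the members' medians lay between -0.81 and -0.27 and the astrocyte markers' were negative too. On astrocyte arrays the members' medians lay between -0.27 and 0.41, with much wider shifts of the marker lists.

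Whether a member responded differently in the 2 cell types was tested as the astrocyte effect minus the microglia effect. For 7 of 30 members this difference passed and was positive, and for 0 it was negative. Of all genes 26.6% passed, 13.4% positive and 13.2% negative. At an unadjusted p under 0.05, 3 members were negative, Grin2b, Dlg4 and Tubb3, at p between 0.0365 and 0.0456, and their adjusted p was 0.105 to 0.124. The members' median difference was 0.47, against -0.03 over all genes. The calls were in 3 of 10 bright members, where 41.3% of all genes above the median gene passed, and in 4 of 20 dim members, where 11.7% of the rest passed.

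The differences were 1.98 ± 0.27 for Cplx1 (adjusted p = 7.24e-04), 1.97 ± 0.35 for Syt1 (adjusted p = 0.00274), 1.96 ± 0.26 for Stmn2 (adjusted p = 6.21e-04), 1.68 ± 0.22 for Slc12a5 (adjusted p = 5.54e-04), 1.63 ± 0.25 for Nefl (adjusted p = 0.00122), 1.35 ± 0.25 for Stmn3 (adjusted p = 0.00349) and 0.70 ± 0.17 for Nrgn (adjusted p = 0.0132). Cplx1, Slc12a5 and Stmn2 were called lower in microglia and higher in astrocytes. These Slc12a5 calls came from the brighter of its probes. The second probe read 0.01 for the microglia effect and -0.52 for the astrocyte effect, and the difference had the opposite sign (-0.53, adjusted p = 0.123). Syt1, Nefl and Stmn3 were called lower in microglia only, and Nrgn was called higher in astrocytes only. For Cplx1 and Stmn2 all 7 microglia arrays lay below 0 and all 4 astrocyte arrays above. For Syt1 and Nefl, astrocyte replicate 4 went with the microglia arrays, at -0.83 and -0.42, against 0.83 to 1.25 and 0.35 to 0.60 on the other astrocyte arrays.

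Snap25, Syn2, Tubb3 and Map2 fell in both cell types with the probes used. The second Syn2 probe gave 0.18 in microglia, and the microglia calls of Snap25 and Tubb3 were lost when some single arrays were left out. The difference of the effects was 0.01 ± 0.26 for Map2 and -0.18 ± 0.26 for Syn2, and neither passed. With their second probes it was 0.42 for Map2, which passed (adjusted p = 0.0423), and -1.21 for Syn2 (adjusted p = 0.0525). A p that misses the threshold does not show that the effects were alike. The remaining calls were in one cell type, Syn1, Syp and Camk2a in microglia and Grin2b and Dlg4 in astrocytes, and the test that their effects differed did not pass (adjusted p = 0.0974 for Camk2a to 0.579 for Syp). For Camk2a that difference passed with the second probe (0.67, adjusted p = 0.0445) and with the probes averaged (0.49, adjusted p = 0.0179). In 14 members neither effect passed, among them all 4 interneuron products and all vesicular transmitter transporters. The call of Nrgn did not hold without astrocyte replicate 1 (0.58, adjusted p = 0.0517), and the other 6 held with any 1 array left out.

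**Figure D4:**
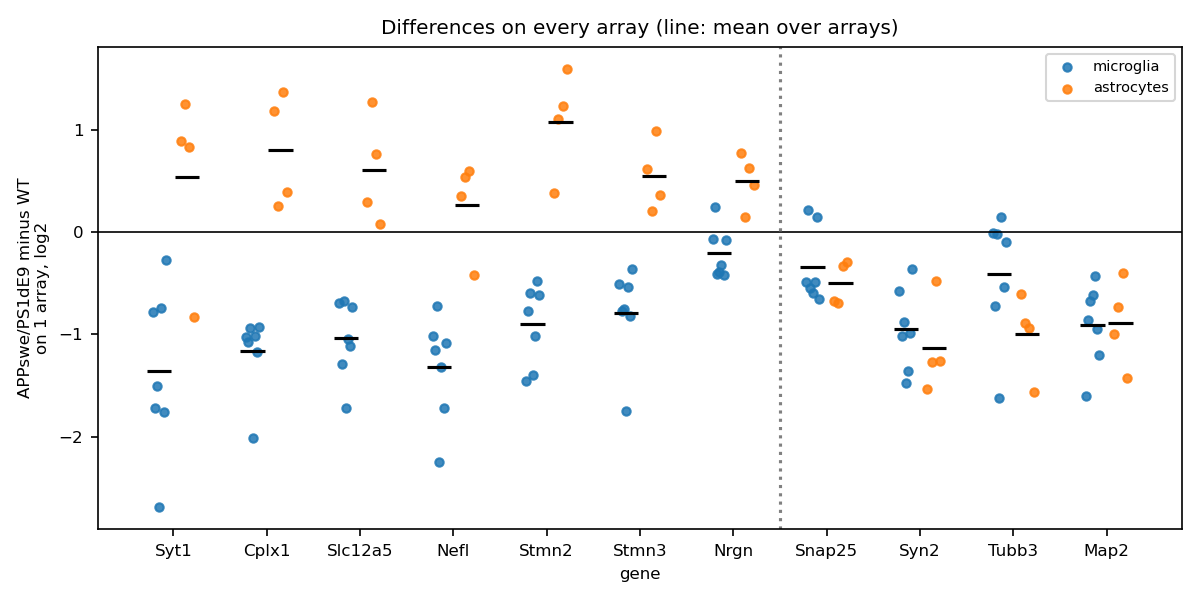
Difference APPswe/PS1dE9 minus WT on each of the 7 microglia arrays (blue) and 4 astrocyte arrays (orange), in log2 units, with the mean as a black line, for the 7 members whose genotype effects differed between the cell types (left of the dotted line) and 4 that fell in both (right). Cplx1, Slc12a5, Stmn2 and Stmn3 had blue points below 0 and orange points above 0 without exception.

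Promoter windows are printed for members whose effects differed between the cell types and that have 1 listed start, and for Syn1, which was added after its matches were seen because it holds both of the rarer motifs searched. A RefSeq window of 250 bases before the start was found for 22 of the 30 measured members (28 windows, GRCm38.p6). They were searched on both strands for the left part of the RE1 element, bound by the repressor REST (TTCAGCACC), the cyclic AMP response element (TGACGTCA), the GC box (GGGCGG) and the CCAAT box (CCAAT). Matches are in capitals, and no 2 of those shown overlap. The sequences run 5′ to 3′ on the gene's strand, which is the minus strand for all of them: Syn1 at chrX:20920919-20921168, Cplx1 at chr5:108550028-108550277, Stmn3 at chr2:181314501-181314750 and Nrgn at chr9:37552746-37552995, each just upstream of the gene's first exon.
Syn1: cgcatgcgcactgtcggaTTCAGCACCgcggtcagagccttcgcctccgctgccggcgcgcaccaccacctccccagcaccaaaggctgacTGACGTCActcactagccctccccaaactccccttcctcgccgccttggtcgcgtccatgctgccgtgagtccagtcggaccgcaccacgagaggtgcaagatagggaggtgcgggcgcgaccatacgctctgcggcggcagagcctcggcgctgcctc
Cplx1: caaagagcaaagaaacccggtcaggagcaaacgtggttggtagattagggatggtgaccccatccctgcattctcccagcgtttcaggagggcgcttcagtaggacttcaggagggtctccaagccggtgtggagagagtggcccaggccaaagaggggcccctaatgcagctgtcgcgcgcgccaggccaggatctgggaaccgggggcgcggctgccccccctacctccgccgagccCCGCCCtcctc
Stmn3: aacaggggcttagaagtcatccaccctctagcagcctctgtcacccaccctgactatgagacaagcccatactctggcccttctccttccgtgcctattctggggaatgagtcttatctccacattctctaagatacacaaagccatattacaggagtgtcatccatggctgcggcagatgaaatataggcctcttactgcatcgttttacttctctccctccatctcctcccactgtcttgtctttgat
Nrgn: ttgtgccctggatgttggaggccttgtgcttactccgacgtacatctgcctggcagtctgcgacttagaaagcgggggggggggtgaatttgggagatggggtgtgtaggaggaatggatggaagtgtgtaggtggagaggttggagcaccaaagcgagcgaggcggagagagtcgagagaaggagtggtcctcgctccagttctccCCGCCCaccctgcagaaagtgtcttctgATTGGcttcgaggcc

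The RE1 letters were present in 1 of 28 member windows, that of Syn1, where they start 232 bases before the transcript start, and in 0.301% of 32851 windows of all genes. The cyclic AMP response element was present in the windows of Sst and Syn1, in the latter 159 bases before the start, and in 1.55% of all windows. The GC box was found in 14 of 28 member windows, against 32.7% of all windows, and the CCAAT box in 8 of 28, against 33.9%. Cplx1 has a GC box on the opposite strand 11 bases before its start. Nrgn has a GC box at 43 and a CCAAT box at 15 bases, both on the opposite strand, and Stmn3 has none of these letters in its window. Cplx1 and Nrgn thus share the GC box, and no motif of the 4 is in all of Cplx1, Stmn3 and Nrgn. A match is a description of the letters only.

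In all, 10 members had more than 1 probe, which gave a second reading of the same gene. With every probe tested on its own, 19.2% of probes passed in microglia, 32.4% in astrocytes and 53.9% between WT cell types. For Map2 both probes fell in microglia (-0.90 and -1.28) and in astrocytes (-0.89 and -0.86), and for Camk2a both fell in microglia (-0.38 and -0.87). For Syn2 the dimmer probe, with a mean of 4.52, gave -1.03 in astrocytes, close to the -1.14 of the brighter one, but 0.18 in microglia, where the brighter one gave -0.95. Slc12a5 disagreed in both cell types: its dimmer probe, with a mean of 4.44, gave 0.01 in microglia and -0.52 in astrocytes, against -1.08 and 0.60 for the brighter probe with a mean of 6.79. When each probe was adjusted on its own, both astrocyte values of Slc12a5 passed in opposite directions (adjusted p = 0.0474 and 0.0233). With the probes averaged, Slc12a5 changed by 0.04 in astrocytes (adjusted p = 0.863) and Syn2 by -0.39 in microglia (adjusted p = 0.209).

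Nefm and Sst had 10 probe features each, which show the spread of the array itself. The 10 features of Sst gave -0.22 to 0.14 in microglia with a median of -0.03, and 0.07 to 0.31 in astrocytes with a median of 0.11. The 10 features of the dimmer Nefm gave -1.94 to 0.19 in microglia with a median of -0.73, and 0 of them passed. Their average passed as lower (limma adjusted p = 0.0400). For Grin2b both probes were lower in astrocytes, at -0.79 and -0.48, and the dimmer one did not pass. The 3 Rbfox3 probes agreed in sign, negative in microglia and positive in astrocytes, and none passed.

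A second list of neuronal genes, which holds none of the members, was read in the same way. Of its 91 genes tested in microglia 6 rose and 14 fell, with a median of -0.12. That is 6.59% higher and 15.4% lower, against 8.27% and 11.4% of all genes. Of 20 presynaptic genes 0 rose and 5 fell, of 22 cytoskeletal and RNA-binding genes 0 rose and 6 fell, and of 20 postsynaptic and channel genes 2 rose and 1 fell. Of 18 interneuron and peptide genes 2 rose and 0 fell, and of 11 genes of cortical projection neurons 2 rose and 2 fell. The genes with the smallest adjusted p were Rtn1 (-0.78), Nsg2 (-1.11), Map1a (-0.80) and the cortical transcription factor gene Tbr1 (-1.05) among falls, and the neuropeptide gene Cck (1.72 ± 0.12), the calcium channel gene Cacna1a (2.14 ± 0.15), Pvalb (0.32) and Cux2 (0.50) among rises. The wider list thus fell less in the median than the 30 members, and this difference between the lists was not tested.

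In astrocytes 14 of 92 genes of that list rose and 20 fell, at a median of -0.04. That is 15.2% higher and 21.7% lower, against 15.4% and 18% of all genes. The kinesin gene Kif5a rose by 2.70 ± 0.26, Cck by 1.36, the dynein gene Dync1i1 by 1.20 and the growth cone gene Gap43 by 1.53, while Elavl3 (-1.16), Lmo4 (-1.46), Tubb2a (-1.52) and Vamp1 (-0.55) fell. Cck was thus higher in APPswe/PS1dE9 samples of both cell types. The effects differed between the cell types for 30 of 91 genes, 14 positive and 16 negative, a share of 33.0% against 26.6% of all genes. Among them were Nsg2 (2.21), Kif5a (2.95), Dync1i1 (1.52) and Gap43 (1.98) on the positive side and Cacna1a (-2.19), Elavl3 (-1.07), Gphn (-1.14) and Lmo4 (-1.34) on the negative side. Between WT cell types 35 (38.5%) were higher in astrocytes, led by Mapt, Rorb, Nsg1 and Tubb2a, and 13 (14.3%) lower, led by Basp1 (-5.35), Cux1, Tubb4a and Rtn1, against 35.3% and 18% of all genes.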

How the data were processed

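Transcripts were measured in sorted cells on dual-colour Agilent arrays. The authors deposited a table of single-channel log2 values, 22 columns from 11 arrays. Per the submitters' processing notes limma was used. The version, background correction and normalization are not stated in them or in the labels. Column distributions differed by at most 0.205 log2 at any quantile from 5 to 95 percent. The number of arrays limits the precision.

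Of 43020 probes, 33026 named 1 gene, 0 several and 9994 none. The gene identifiers of 32438 matched RefSeq, with 0 symbols changed. Each of the 22485 genes, 6138 of them with several probes, was read from the probe with the highest mean over all samples.

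Genotype effects were fitted with limma 3.58.1 (R 4.3.3, statmod 1.5.0) in a single model with terms for the array, the dye and the genotype within each cell type, leaving 8 residual degrees of freedom. The difference of effects was the interaction. Cell types were compared with dye and array as a random block. Tests were two-sided and adjusted by Benjamini-Hochberg over all genes at 0.05. The fits were checked on simulated data. Blank values were left out of a gene's fit, pair by pair. Pairing comes from the labels, which put same-numbered samples on 1 array; their deviations from group means correlated across genes, with a microglia median of 0.47 (range 0.37 to 0.63) and an astrocyte median of 0.23 (range 0.00 to 0.50). P-values of the genotype tests measure how the differences within an array spread from array to array, pooled over both cell types. Those of the cell type comparison measure the spread between samples. The samples are described as biological replicates.

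The members, lists and tests were chosen with earlier results of these data known. By rule all members were named, and of the second neuronal list up to 4 genes per direction with the smallest adjusted p. Astrocyte, microglia, oligodendrocyte, oligodendrocyte precursor, endothelial, mural and perivascular macrophage markers were read beside them. Alternatives were no array block, a random array block, no dye term, quantile scaling, other probes, filters, an intensity trend, each cell type or slide alone and single arrays left out. A fit on arrays with like Eif2s3y (Y-linked) in both samples, within 2 log2, and every probe on its own were added after the data were seen. Tables and plots used Python 3.11.15.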

Additional observations from a re-analysis of the deposited data

Results flagged for a closer look

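Among 112 sets of samples of one gene and group that were large enough to be examined, 6 held a sample that stood far from the rest of its group, close to the share of about 1 in 20 that chance gives. Syp read 9.72 in WT microglia replicate 1, with the nearest sample at 9.92. Gad2 read 1.20 in WT microglia replicate 2, with the nearest at 3.28. Tubb3 read 3.57 in APPswe/PS1dE9 microglia replicate 4, with the nearest at 4.78, on the array that had the most blank genes. Grin2b read 7.75 and Stmn3 8.95 in APPswe/PS1dE9 astrocyte replicate 3, with the nearest samples at 6.26 and 7.99. That replicate held the highest value for 20 of 23 members measured on every array. Stmn2 read 10.39 in APPswe/PS1dE9 astrocyte replicate 4, with the nearest at 9.82.

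The genotype effect differed between the cell types for 7 of 30 members by a test of the difference itself, each with the higher effect in astrocytes. That is 23.3% of the members, against 26.6% of all genes. The differences were 1.97 for Syt1, 1.98 for Cplx1, 0.70 for Nrgn, 1.68 for Slc12a5, 1.63 for Nefl, 1.96 for Stmn2 and 1.35 for Stmn3. For Slc12a5 the second probe gave a difference of the opposite sign, -0.53, which did not pass (adjusted p = 0.123). The call of Nrgn was lost without astrocyte replicate 1 (limma adjusted p = 0.0517).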

How the results depend on the processing

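The main limits of the neuronal signals are their dimness, 1 slide for all astrocytes, unknown normalization, and 4 astrocyte arrays. In microglia 13 members fell and 0 rose (4403 genes in all). The counts were 4 lower and 1184 genes with no replicate block, 2 lower (of 10) and 1043 genes with the second brightest probe, 7 lower and 1 higher among genes above the median gene, 2389 genes within slide 1, 4 lower and 1389 genes within slide 2, and 2263 genes on arrays matched in Eif2s3y, chosen after seeing the data. Eno2 made 1 higher call among genes measured on all arrays, with an intensity trend and with the cell type fitted alone. With single arrays left out, 10 to 13 fell and 0 to 1 rose. In astrocytes 4 rose and 6 fell (7516 genes). No replicate block left 0 and 0 (2447 genes), the second brightest probe 0 and 2 (1661) and astrocytes fitted alone 1 and 3 (2820). On matched arrays 1 stayed higher, Stmn2, while Syn2, Grin2b, Tubb3 and Map2 stayed lower (3784 genes). With single arrays left out 1 to 5 rose and 5 to 7 fell. Without the block the adjusted p was 0.0586 to 0.609 for the 10 calls lost in astrocytes and 0.0956 to 0.738 for the 9 lost in microglia. The difference of effects was positive for 7 and negative for 0 members (5952 genes). It was positive for 4 without the block (1491 genes), where Nefl, Nrgn and Stmn3 were lost, for 2 of the 10 with a second probe (1285), Camk2a and Map2, neither among the 7, and for 4 among genes above the median gene, with 3052 genes on matched arrays, and 6 to 8 positive and 0 to 2 negative with single arrays left out. Between WT cell types 14 were higher and 2 lower (11940 genes). With slide as a random block 8 and 0 passed (7261 genes) and with the second brightest probe 3 and 0 (3247). Among genes above the median gene 5 were higher, and Syp and Camk2a stayed lower.

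With the second brightest probe the sign turned for Slc12a5 in microglia (0.012), in astrocytes (-0.52) and in the difference (-0.53), and for Syn2 in microglia (0.18). Cplx1, at -0.09 between WT cell types, was at 1.89 between APPswe/PS1dE9 cell types. Fewer genes were tested where only second probes or genes above the median were used. For the other settings the cause was not tested. Quantile scaling moved none of the counts of called members by over 1.5 times.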
